A study of Mus musculus with 12 samples.

Results

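Mammary glands that lack the progesterone receptor were compared between 24 h and 8 h of combined hormone treatment. The comparison takes 3 arrays of receptor null mice at 24 h against 3 arrays of receptor null mice at 8 h, 6 of the 12 expression arrays of the study, and covers the 45037 probe sets that are not controls. The difference is given throughout as 24 h minus 8 h on the log2 scale, so a positive value is higher at 24 h. The mice were BALB/c females, 10 weeks old and ovariectomized. Every mouse was first given 24 h of 17β-estradiol at 100 ng. Progesterone at 2.5 ug was then added to the 17β-estradiol, for 8 h in one group and for 24 h in the other. The other 6 arrays hold wild type mice given the same hormones for the same times and serve only as a point of reference. Each array carried RNA of 1 pool of 3 mice. The labels say nothing of how the allele was made or whether null and wild type mice were littermates.

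Every group received progesterone, the null groups included, and no group received 17β-estradiol alone. The total time on 17β-estradiol also differed, 32 h against 48 h, and the clock hour of collection may have differed. Hormone duration, progesterone duration and clock hour therefore cannot be told apart in this comparison. The question it answers is which transcripts moved between the early and the late time in glands in which the progesterone receptor itself could not act.

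Progesterone acts on the adult mammary gland mainly through its nuclear receptor, which sits in a subset of luminal epithelial cells and switches on secreted signals, RANK ligand and WNT4 among them, that drive the neighbouring cells. Pgr, the receptor gene, is itself induced by estrogen through the estrogen receptor of the same cells. A gland without the receptor keeps its estrogen receptor, its ducts, its fat and its vessels, so it can still respond to estradiol, to other steroid receptors that bind progesterone metabolites, to stress and to the time of day.

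Of 23709 probe sets that exceeded the median of their array on 3 or more of the 12 arrays, 1044 (4.40%) changed between 8 h and 24 h in null glands. The test was limma with Benjamini-Hochberg adjustment over all 23709 probe sets, and called means an adjusted p below 0.05. Of these, 193 were higher and 851 lower at 24 h, so 81.5% of the calls were falls. With quantile normalization the split was 244 higher and 560 lower (69.7% falls), and without null 24 h pool 1 it was 275 and 733 (72.7% falls). With 1 probe set per gene, 548 of 12004 genes were called (4.57%), 88 higher (0.733%) and 460 lower (3.83%), and the 3 and 3 arrays of all 548 did not overlap. The arrays alone separate far more genes than the test calls, since 26.3% of all genes had groups that did not overlap, 17.7% lower and 8.68% higher. Only 107 probe sets were both called and changed more than 2-fold, 18 higher and 89 lower. The count of 1044 rested on single arrays, since it was 232 without null 8 h pool 3, 315 without null 24 h pool 2, 413 without null 8 h pool 2 and 532 without null 24 h pool 3. It was 659 without both null pools numbered 1 and 87 without both numbered 3.

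**Figure D1:**
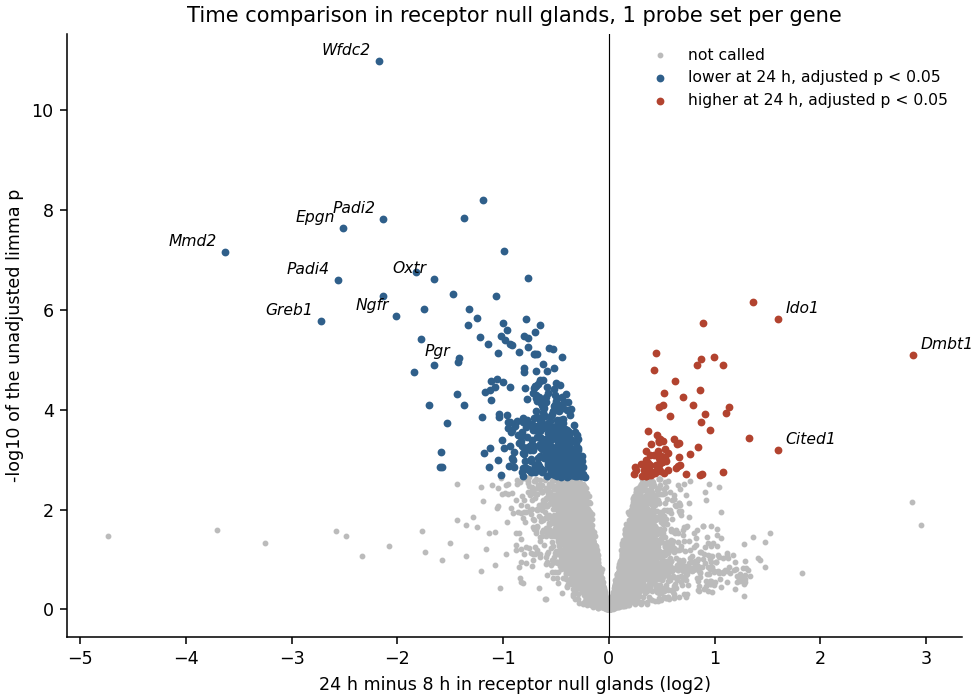
Difference between 24 h and 8 h in receptor null glands (x axis, log2) against the unadjusted limma p (y axis, −log10), 1 point per gene for 12004 genes. The 460 genes called lower (blue) outnumber the 88 called higher (red), and Mmd2, Greb1, Padi4 and Epgn lie farthest to the left among the calls, Dmbt1 farthest to the right.

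Array medians over the 12 arrays ran from 5.84 to 5.91 (log2). Correlations between arrays of 1 group over the tested probe sets ran from 0.980 to 0.989 at 8 h and from 0.965 to 0.988 at 24 h. Markers of the labelled tissue gave signal: 31 of 33 listed epithelial genes and 21 of 24 listed white adipocyte genes passed the signal filter. So did 30 of 32 listed skeletal muscle genes, so passing the filter does not tell tissues apart. Pgr was called lower at 24 h and is described among the estrogen responsive genes. Its probe sets still gave signal in null glands. The labels do not place them relative to the disrupted part of the gene, so they do not check the genotype.

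Padi4, Padi2 and Epgn fell in null glands and had a change that differed from wild type, and their promoters are shown here first. The first 2 encode enzymes that turn arginine residues of proteins into citrulline, and the third encodes epigen, a ligand of the EGF receptor. Klf15, a transcription factor gene that glucocorticoids induce, is added as a riser whose window held 3 copies of the E-box CACGTG, the sequence that clock proteins of the CLOCK and BMAL1 family bind. Each window runs from 250 bases before to 50 bases after the annotated start, 300 bases in all, from RefSeq on GRCm38.p6, written 5′ to 3′ on the strand of the gene. Capitals mark matches on either strand to the motifs searched. The Padi4 window is chr4:140774154-140774453 on the minus strand, the Padi2 window chr4:140906110-140906409 on the plus strand, the Epgn window chr5:91027267-91027566 on the plus strand and the Klf15 window chr6:90462326-90462625 on the plus strand.
Padi4: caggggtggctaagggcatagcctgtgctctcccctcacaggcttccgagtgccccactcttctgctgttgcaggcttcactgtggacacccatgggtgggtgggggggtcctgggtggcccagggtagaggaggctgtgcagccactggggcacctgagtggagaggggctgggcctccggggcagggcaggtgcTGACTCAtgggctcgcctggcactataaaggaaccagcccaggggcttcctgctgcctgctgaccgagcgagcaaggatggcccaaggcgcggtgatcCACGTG
Padi2: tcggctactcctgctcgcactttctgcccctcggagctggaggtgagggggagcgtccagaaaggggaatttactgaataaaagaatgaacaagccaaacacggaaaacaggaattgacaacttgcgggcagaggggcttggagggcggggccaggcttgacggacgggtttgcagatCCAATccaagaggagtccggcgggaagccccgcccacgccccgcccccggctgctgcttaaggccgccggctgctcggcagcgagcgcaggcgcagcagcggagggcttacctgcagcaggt
Epgn: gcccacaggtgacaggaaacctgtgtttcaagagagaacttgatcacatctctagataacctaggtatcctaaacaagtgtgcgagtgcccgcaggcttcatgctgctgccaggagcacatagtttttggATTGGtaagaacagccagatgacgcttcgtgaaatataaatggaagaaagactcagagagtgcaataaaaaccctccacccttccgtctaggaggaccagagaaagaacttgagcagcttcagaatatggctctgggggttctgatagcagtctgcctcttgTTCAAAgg
Klf15: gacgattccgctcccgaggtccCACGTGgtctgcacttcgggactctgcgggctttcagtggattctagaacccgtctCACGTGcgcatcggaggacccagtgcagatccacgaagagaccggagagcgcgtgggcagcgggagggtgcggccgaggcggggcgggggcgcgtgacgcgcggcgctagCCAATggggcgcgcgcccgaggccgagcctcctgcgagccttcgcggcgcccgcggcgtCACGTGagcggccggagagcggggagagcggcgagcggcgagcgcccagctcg

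Counted from 1 at the 5′ end of the window, Padi4 held the AP-1 sequence TGACTCA at bases 197 to 203 and an E-box at bases 295 to 300. Padi2 held a CCAAT box at bases 179 to 183. Epgn held a CCAAT box on the other strand at bases 131 to 135 and a match to the cell cycle element TTTGAA on the other strand at bases 293 to 298. Klf15 held E-boxes at bases 23 to 28, 79 to 84 and 248 to 253, and a CCAAT box at bases 189 to 193. Over all 32851 windows of the RefSeq table, 7.15% held the E-box, 5.20% the AP-1 sequence, 37.4% a CCAAT box and 17.9% TTTGAA. Windows were found for 70 of the 104 called genes named by rule, 58 that fell and 12 that rose. A gene was counted if any of its windows held the motif. The shares above are per window, over 32851 windows of 27025 genes, so the units differ. The E-box stood in 10 of the 58 and 1 of the 12, the AP-1 sequence in 3 and 0, the CCAAT box in 24 and 3, and TTTGAA in 13 and 1. The other motifs searched on both strands were 2 E2F sequences, TTTCCCGC and TTTGGCGC, the cyclic AMP response element TGACGTCA, the D-box TTATGTAA, and full palindromes of the estrogen and steroid response elements, the heat shock element and the endoplasmic reticulum stress element. Each of these stood in 0 to 2 of the 58 genes and in 0 or 1 of the 12. CCAAT is part of the last of them, so those matches overlap. A match describes these letters in this window and is neither a site nor a cause.

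The epithelium is the part of the gland that carries the hormone receptors, and its general markers were lower at 24 h. Of 31 tested genes of epithelial keratins and adhesion, 8 fell, 0 rose and 23 were not called, against 3.83% of all genes that fell. This share, with the 0.733% of all genes that rose, is the one to set beside every list count below. The median difference of the 31 was -0.51, beside -0.02 over all genes, and 29 of 31 lay below 0. The mean of the list, as a deviation from each gene's mean over all 12 arrays, was 0.21, 0.24 and -0.12 on 8 h pools 1 to 3 and -0.43, -0.37 and -0.55 on 24 h pools 1 to 3. The groups of array means did not overlap. In these bulk samples, fewer cells of a type and less RNA per cell cannot be told apart, and this holds for every cell type named here. In wild type glands the same list had a median difference of 0.31, with 4 genes called higher (1.45% of all genes rose there) and 1 lower. With 1 array left out the null count ran from 2 (without 8 h pool 3 or 24 h pool 3) to 10, and with the replicate block it was 13.

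Krt7, a keratin of simple epithelia, read 9.58, 9.43 and 9.58 on 8 h pools 1 to 3 and 8.83, 8.80 and 8.54 on 24 h pools 1 to 3. All 3 late pools lay below all 3 early ones, a 1.75-fold fall (SE 0.10 on the log2 scale, adjusted p = 0.0019). Prom2, a membrane protein of epithelial protrusions, fell 3.35-fold. Cldn7, a tight junction protein, fell 1.72-fold, and Esrp1 and Esrp2, splicing factors of epithelial cells, fell 1.59-fold and 1.68-fold. Spint1, a protease inhibitor of epithelial surfaces, fell 1.42-fold. Krt7 and Prom2 kept their calls with any 1 of the 12 arrays left out. Cldn7 lost its without 8 h or 24 h pool 3 (adjusted p up to 0.067), Esrp2 without any of the 6 null pools (up to 0.088), and Esrp1 without wild type 8 h pool 2 or any null pool but 24 h pool 1 (up to 0.094). Spint1 was called only without wild type 24 h pool 1 or 2, 2 of 12 such fits, and not with the replicate block (adjusted p = 0.068). Krt17, Krt15 and Krt14, keratins of basal cells, had differences of -1.50, -1.35 and -1.28 and were not called (adjusted p = 0.23, 0.15 and 0.13).

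Among 14 tested markers of luminal hormone sensing cells, which carry the estrogen receptor, 5 fell and 2 rose. Among 17 of luminal progenitor and alveolar cells 3 fell and 0 rose, with a median of -0.42 and 16 of 17 below 0. Among 22 of basal and myoepithelial cells 1 fell (4.55%, near the 3.83% of all genes) and 0 rose, with a median of -0.21 and 19 of 22 below 0. The array groups of 8 basal genes and of 11 progenitor genes did not overlap, all lower at 24 h, beside 17.7% of all genes. With 1 array left out the falls ran from 3 to 6 for the first list, from 1 (without null 8 h pool 3, 24 h pool 2 or 24 h pool 3) to 6 for the second and from 1 to 2 for the third. With the replicate block 5, 7 and 3 fell.

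Cited1, a transcription coactivator of estrogen receptor positive luminal cells, had the larger of the 2 called rises among the markers of hormone sensing cells. It read 6.76, 5.46 and 5.89 on 8 h pools 1 to 3 and 7.45, 8.34 and 7.12 on 24 h pools 1 to 3. The groups did not overlap, but the early pools alone spanned more than 1 log2 unit. It rose 3.03-fold (adjusted p = 0.027), and the call was lost without null 8 h pool 2, 8 h pool 3 or 24 h pool 2 (adjusted p from 0.097 to 0.10). Tmem45b, a transmembrane protein gene listed with these cells, rose 1.42-fold and lost its call without wild type 8 h pool 2 or any null pool but 24 h pool 1 (adjusted p up to 0.12). The called falls of the list were Pgr, Cxcl15, Tbx3, Stc2 and Cited4. Cxcl15, a chemokine gene, read 10.22, 10.29 and 10.49 on 8 h pools 1 to 3 and 8.48, 7.81 and 8.31 on 24 h pools 1 to 3, a 4.39-fold fall in which every late pool lay below every early one. Tbx3, a T-box transcription factor of luminal cells, fell 1.56-fold. Stc2, a secreted glycoprotein, fell 2.07-fold and Cited4, a relative of Cited1, fell 1.47-fold. Cxcl15 and Tbx3 kept their calls with any 1 array left out, whereas Stc2 and Cited4 were called in 5 of 12 such fits. Both were lost without wild type 8 h pool 1 or 2, Stc2 also without any null pool but 24 h pool 2 and Cited4 without any but 8 h pool 2 (adjusted p up to 0.12 and 0.13). Gata3, the luminal lineage factor, had a difference of -0.54 (adjusted p = 0.13), and Tnfsf11, which encodes RANK ligand, one of 0.75 (adjusted p = 0.44).

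Oxtr, the oxytocin receptor that makes myoepithelial cells contract for milk ejection, was the 1 basal gene that fell. It read 11.36, 11.28 and 11.32 on 8 h pools 1 to 3 and 9.42, 9.95 and 9.63 on 24 h pools 1 to 3. The early pools were nearly equal and the late ones all lower, a 3.15-fold fall (SE 0.15, adjusted p = 0.00037). A further tested Oxtr probe set fell as well. Among progenitor markers Kit, a receptor tyrosine kinase, fell 1.80-fold, Cd14, a co-receptor for bacterial lipopolysaccharide, 1.51-fold, and Aldh1a3, an enzyme of retinoic acid synthesis, 1.49-fold. Kit kept its call with any 1 array left out. Cd14 lost its without null 8 h pool 2 or 3 or 24 h pool 2 or 3 (adjusted p up to 0.087), and Aldh1a3 was called only without 1 of the wild type 24 h pools, 3 of 12 fits. Wfdc18 and Lalba, genes of secretory epithelium, had differences of -0.99 and -0.87 and were not called (adjusted p = 0.070 and 0.058).

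The 15 largest called falls and 15 largest called rises among genes whose higher group mean exceeded the mean of the array medians are the members on which the comparison turns. A gene could pass this through 1 group alone. Padi4, Epgn, Greb1 and Cyp7b1 did so through their 8 h means, with 24 h means of 4.83, 4.80, 5.37 and 5.78. Crym and Capsl did so through 24 h means of 6.82 and 6.09, with 8 h means of 5.49 and 5.21. Their lower means lay below the array medians, where levels are poorly measured, and so are these fold sizes. Mmd2, a membrane protein of the PAQR family, had the largest of the 15 falls. It read 10.28, 10.00 and 10.38 on 8 h pools 1 to 3 and 7.08, 6.14 and 6.54 on 24 h pools 1 to 3. The groups lay far apart, a 12.4-fold fall (SE 0.30, adjusted p = 0.00018), and a further probe set of the gene fell 9.54-fold. Wfdc2, a secreted protein with whey acidic protein domains, had the smallest p of the comparison. It read 11.09, 10.85 and 11.05 on 8 h pools 1 to 3 and 8.82, 8.86 and 8.78 on 24 h pools 1 to 3, a 4.53-fold fall (SE 0.08, adjusted p = 2.4e-07). The 3 late pools of Wfdc2 were nearly identical.

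Ngfr, the p75 neurotrophin receptor of basal epithelium and of nerve sheath cells, read 7.86, 8.29 and 8.55 on 8 h pools 1 to 3 and 6.41, 6.35 and 5.91 on 24 h pools 1 to 3. This was a 4.03-fold fall without overlap of the groups. It was the 1 called gene among 8 tested markers of Schwann and neuronal cells. Slc5a8, a sodium-coupled transporter of short-chain monocarboxylates, fell 3.60-fold, from 8.09, 7.84 and 7.98 to 5.77, 6.27 and 6.32. Kif5c, a motor protein of microtubule transport, fell 3.53-fold, from 9.03, 8.60 and 8.84 to 7.41, 6.79 and 6.81. Plod2, which hydroxylates lysines of collagen, fell 3.25-fold and lost its call when 8 h pool 3 was dropped (adjusted p = 0.054). The other 14 of the 15 falls kept their calls with any 1 array left out.

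Akr1c14 and Cyp7b1, which act on steroids, were also among the largest falls. Akr1c14 encodes a reductase that inactivates androgens and progesterone metabolites, and it read 10.02, 10.71 and 10.73 on 8 h pools 1 to 3 and 8.68, 8.86 and 8.60 on 24 h pools 1 to 3. All late pools lay below the early ones, a 3.42-fold fall (adjusted p = 0.0019). Cyp7b1 hydroxylates oxysterols and neurosteroids and fell 3.14-fold, from 7.11, 7.52 and 7.65 to 6.04, 5.50 and 5.78. These were the 2 called genes among 12 tested steroid metabolism enzymes, whose median difference was -0.02. Akr1c18, which inactivates progesterone itself, had a difference of -0.68 (adjusted p = 0.15), and Sult1a1, a sulfotransferase, one of 0.47 (adjusted p = 0.064).

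**Figure D2:**
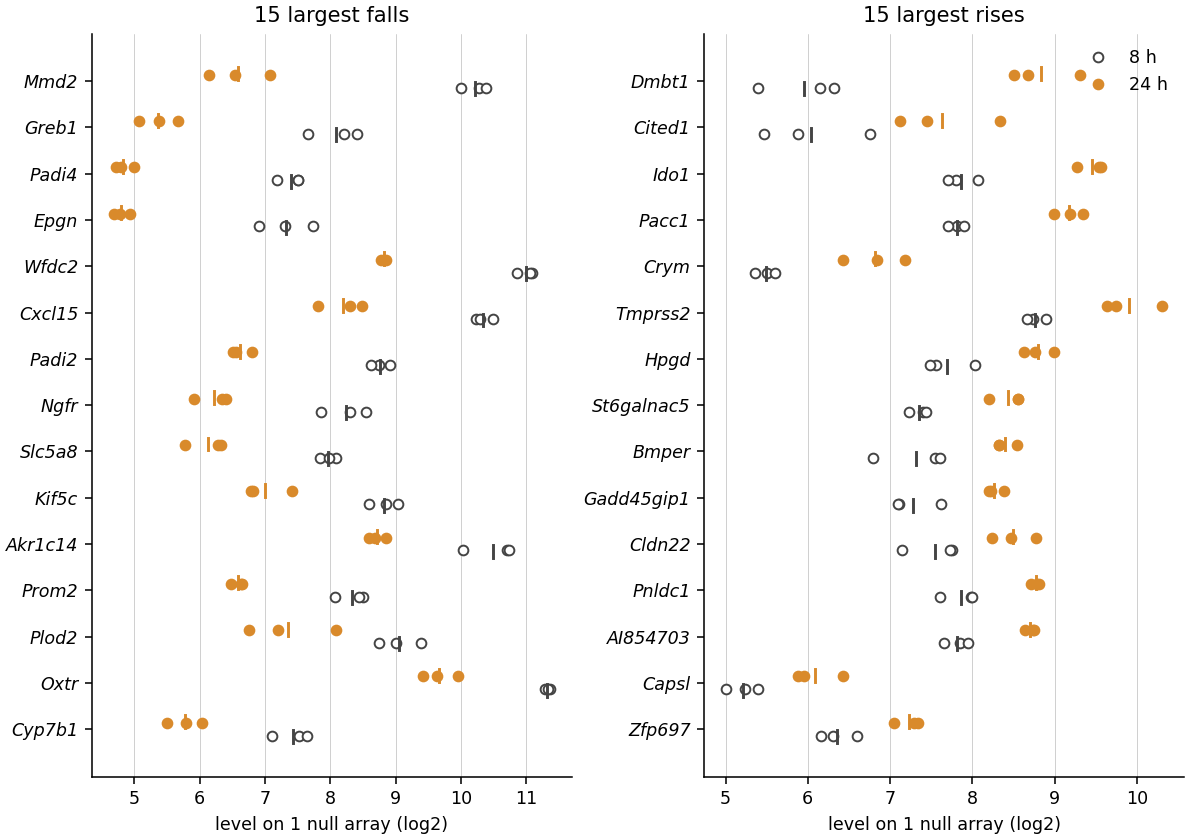
Level of the 15 largest called falls (left) and 15 largest called rises (right) on each null array (x axis, log2), 3 arrays at 8 h (open) and 3 at 24 h (filled), with vertical ticks at the group means. No gene's early and late arrays overlap; the gap is widest for Mmd2 on the left and Dmbt1 on the right, and narrow for Capsl.

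Rises were fewer and smaller. Dmbt1, a secreted scavenger receptor of mucosal surfaces, read 6.32, 6.15 and 5.40 on 8 h pools 1 to 3 and 9.31, 8.51 and 8.67 on 24 h pools 1 to 3. This was a 7.34-fold rise (SE 0.38, adjusted p = 0.0027), kept with any 1 array left out. It stood beside falls of Wfdc2 and of Cp, the copper protein ceruloplasmin (1.32-fold), among 24 tested genes of secreted mucosal defence, of which 1 rose and 4 fell with the replicate block. In wild type glands Dmbt1 had a difference of 0.31 and was not called, and the difference between the genotypes was not called either (2.57, adjusted p = 0.15). Pacc1, a chloride channel opened by acid, read 7.82, 7.90 and 7.71 on 8 h pools 1 to 3 and 9.19, 9.34 and 9.0 on 24 h pools 1 to 3. All late pools lay above the early ones, a 2.58-fold rise, but a further tested probe set of the gene, which read lower, differed by 0.24 and was not called (adjusted p = 0.39).

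Crym, a thyroid hormone binding protein of the cytosol, rose 2.51-fold, from 5.36, 5.51 and 5.60 to 6.43, 6.85 and 7.18. Hpgd, which inactivates prostaglandins, rose 2.15-fold, from 7.56, 8.03 and 7.49 to 8.63, 8.99 and 8.76. Both sets of late pools lay above the early ones. St6galnac5, a sialyltransferase, rose 2.12-fold and so did 2 further tested probe sets of it, and Bmper, a secreted modulator of BMP signals, rose 2.11-fold. Gadd45gip1, a component of the mitochondrial ribosome, rose 1.99-fold, Cldn22, a claudin, 1.94-fold and Pnldc1, an exonuclease, 1.88-fold. AI854703, Capsl and Zfp697 rose 1.86-fold, 1.84-fold and 1.83-fold. The rises depended on single arrays more often than the falls. Crym lost its call without any of the null pools but 24 h pool 1 (adjusted p up to 0.075), Hpgd and Zfp697 without null 8 h pool 3 or 24 h pool 2 (up to 0.061 and 0.065), Pnldc1 without 8 h pool 3 (0.058) and Cldn22 without 24 h pool 2 (0.074). Bmper and Capsl were called in 3 of 12 such fits, lost without any of the 6 null pools, without wild type 8 h pool 1 or 2 and without wild type 24 h pool 2 (Bmper) or 1 (Capsl). Dmbt1, Ido1, Pacc1, St6galnac5, Gadd45gip1 and AI854703 kept their calls with any 1 array left out. Gadd45gip1, AI854703 and Zfp697 each had 1 further tested probe set, which read lower. These differed by 0.17, 0.09 and 0.21 and were not called (adjusted p = 0.41, 0.75 and 0.43).

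Of 22 tested estrogen responsive genes, most of them known to be induced by estrogen, 7 fell, 0 rose and 15 were not called, with a median of -0.26 and 20 of 22 below 0. The 7 were Greb1, Padi4, Epgn, Padi2, Pgr, Stc2 and Myb. Padi4 and Epgn passed the signal filter only through their null 8 h arrays, so their falls add no independent support. The list was also chosen with earlier results of these data known. Its mean includes falls much larger than its median, such as that of Greb1 (-2.72). The count ran from 5 to 9 with 1 array left out and was 9 with the replicate block. The list mean was 0.31, 0.27 and 0.43 on 8 h pools 1 to 3 and -0.34, -0.40 and -0.42 on 24 h pools 1 to 3, with no overlap, beside the fall of the epithelial list over the same arrays. Its part in this result was not tested. Greb1, an estrogen-induced partner of the estrogen receptor, read 7.65, 8.21 and 8.40 on 8 h pools 1 to 3 and 5.67, 5.37 and 5.06 on 24 h pools 1 to 3. All late pools were low, a 6.59-fold fall (SE 0.30, adjusted p = 0.0013), and a further probe set fell 7.54-fold. Pgr read 9.07, 8.56 and 9.04 on 8 h pools 1 to 3 and 7.86, 7.33 and 7.20 on 24 h pools 1 to 3, a 2.68-fold fall without overlap (SE 0.19, adjusted p = 0.0031). A further tested Pgr probe set differed by -0.47 and was not called (adjusted p = 0.12). Over the same interval Pgr fell 4.36-fold in wild type glands, and the difference between genotypes was not called (0.70, adjusted p = 0.75). Nr5a2 and Nr3c1, the latter the glucocorticoid receptor, fell 1.65-fold and 1.24-fold, which made 3 falls and 0 rises among 26 tested steroid and nuclear receptors. Nr5a2 and Nr3c1 lost their calls without null 8 h pool 1 or 3 or 24 h pool 2 or 3 (adjusted p up to 0.10).

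The progesterone targets of wild type glands were measured here in the absence of the receptor. Of 19 tested progesterone targets 5 fell, 1 rose and 13 were not called, with a median of -0.31. Greb1, Kit, Stat5a, Lif and Wnt5a fell and Cited1 rose. Lif, a cytokine of the IL-6 family, read 5.98, 5.99 and 5.98 on 8 h pools 1 to 3 and 5.34, 5.35 and 5.14 on 24 h pools 1 to 3. The early pools were nearly equal and all late ones lower, a 1.63-fold fall, in values close to the array medians. Wnt5a, a WNT ligand, fell 1.38-fold and was called in 5 of 12 leave-one-out fits, lost without wild type 8 h pool 2 or 24 h pool 3 or any null pool but 24 h pool 1 (adjusted p up to 0.15). The list had 4 to 8 falls with 1 array left out, 6 with the replicate block and 2 without both null pools numbered 3.

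Of 12 tested genes of the prolactin and STAT5 axis 4 fell and 0 rose, and all 12 lay below 0, with a median of -0.45. Prolactin signals through STAT5 to build the secretory epithelium. Stat5a, its transcription factor, read 9.98, 9.81 and 9.86 on 8 h pools 1 to 3 and 9.21, 9.01 and 9.14 on 24 h pools 1 to 3, a 1.70-fold fall in which no early pool was as low as a late one. Socs2, a feedback inhibitor induced by STAT5, fell 2.52-fold, and 2 of its 4 further tested probe sets fell as well. Akt1, a kinase of growth signalling, fell 1.39-fold and lost its call without null 8 h pool 3 or 24 h pool 2 (adjusted p up to 0.056). Tph1, the enzyme that starts serotonin synthesis in peripheral tissues, fell 2.99-fold but was called in 5 of 12 such fits, lost without wild type 8 h pool 1 or 24 h pool 3 or any null pool but 24 h pool 1 (adjusted p up to 0.15). The list count was 2 without null 8 h pool 3 or 24 h pool 2 and without both null pools numbered 3, and 6 with the replicate block. In wild type glands 6 of the 12 were called lower, with a median of -0.39, so the direction was shared.

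Immediate early genes respond within minutes to growth factors and stress. Of 29 tested, 9 fell, 0 rose and 20 were not called, with a median of -0.43 and 24 of 29 below 0. Egr1, a zinc finger transcription factor, read 11.47, 10.32 and 10.64 on 8 h pools 1 to 3 and 9.21, 9.17 and 9.45 on 24 h pools 1 to 3. The late pools were close together and all lower, a 2.89-fold fall (SE 0.28, adjusted p = 0.015). Egr2, its relative, fell 3.02-fold, Ccn1, a matricellular protein, 2.19-fold, Fosl2 and Jun, subunits of AP-1, 2.07-fold and 1.65-fold. Junb, Jund, Klf4 and Ier3 were the others that fell, with differences of -0.65, -0.62, -0.60 and -0.55. Fos and Egr3 had differences of -0.75 and -0.98 and were not called (adjusted p = 0.11 and 0.30).

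The list mean of the immediate early genes was 0.19, 0.19 and 0.23 on 8 h pools 1 to 3 and -0.35, -0.24 and -0.14 on 24 h pools 1 to 3, so every late array lay below every early one. Fosl2 and Jun kept their calls with any 1 array left out. Egr1 lost its when null 24 h pool 2 was dropped (adjusted p = 0.062), Egr2 without wild type 8 h pool 1 or 2 or any null pool (up to 0.15), and Ccn1 without wild type 8 h pool 1 or any null pool but 8 h pool 1 (up to 0.14). Ccn1 was also lost with the replicate block (adjusted p = 0.051). The list count was 3 without null 8 h pool 3 or 24 h pool 2, 5 without both null pools numbered 1, 0 without both numbered 3 and 8 with the replicate block. In wild type glands the list had 3 falls, 0 rises and a median of -0.02. The differences of Egr1 and Egr2 between the genotypes, -2.20 and -2.63, were not called (adjusted p = 0.085 and 0.15).

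**Figure D3:**
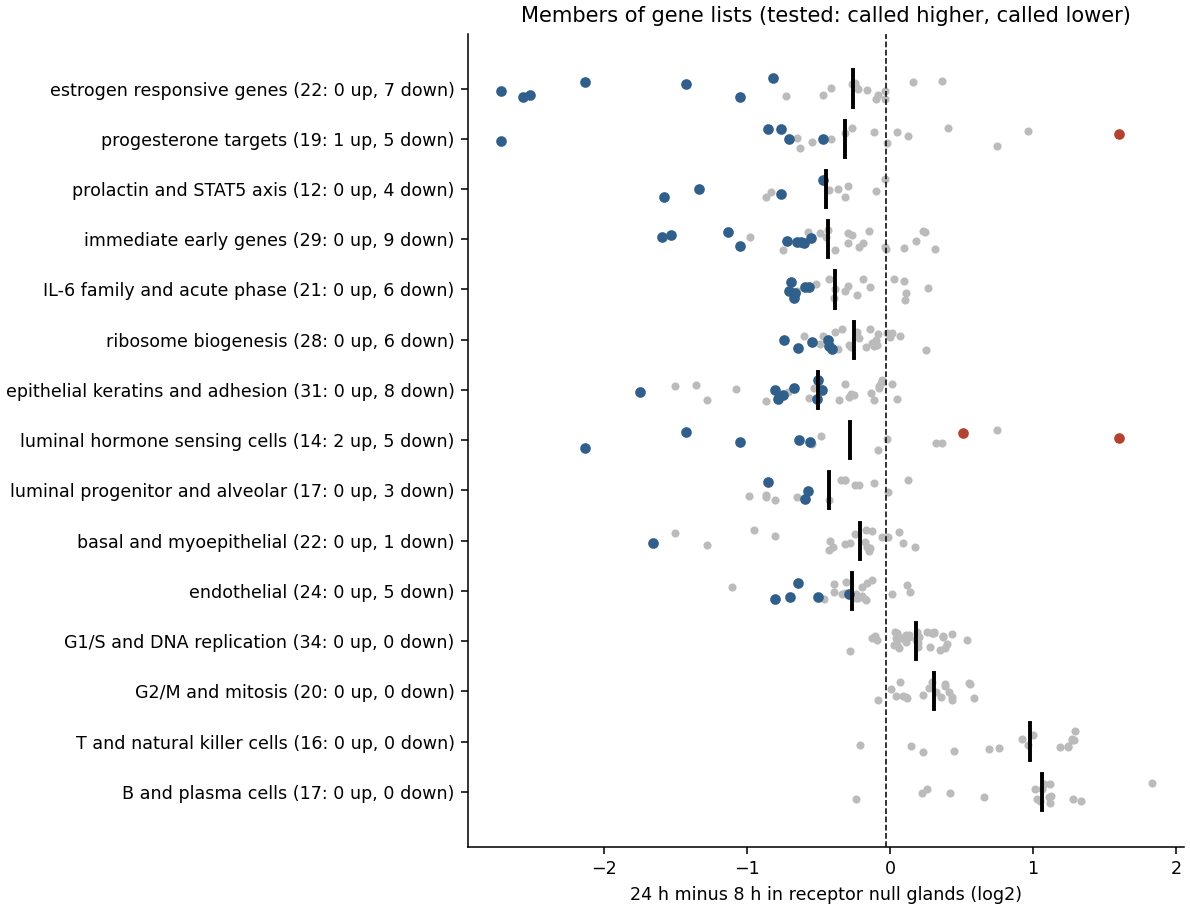
Difference between 24 h and 8 h in receptor null glands (x axis, log2) for every tested member of 15 gene lists, 1 point per gene; called members are blue (lower) or red (higher), bars mark list medians and the dashed line the median of all genes (-0.02). Beside each list stand the number tested and the numbers called higher and lower, such as 9 lower of 29 for immediate early genes and 0 called of 34 for G1/S and DNA replication.

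The IL-6 family and acute phase list gave 6 falls and 0 rises among 21 tested genes, with a median of -0.38. Besides Lif these were Cebpb, a transcription factor of acute phase and mammary genes (1.61-fold lower), Osmr, the oncostatin M receptor (1.59-fold lower), Stat3, the factor that IL-6 type receptors activate (-0.57), Igfbp5 and Cd14. Cebpb read 12.14, 11.83 and 11.99 on 8 h pools 1 to 3 and 11.41, 11.13 and 11.34 on 24 h pools 1 to 3, without overlap. Osmr lost its call without null 8 h or 24 h pool 3 (adjusted p up to 0.072). Igfbp5, a secreted IGF binding protein, is uncertain, since the probe set with the highest signal fell 1.58-fold while a further one rose 1.54-fold (adjusted p = 0.0080). The list had 4 falls without null 8 h pool 3 and 1 without both null pools numbered 3.

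Of 28 tested genes of ribosome biogenesis, 6 fell, 0 rose and 25 lay below 0, with a median of -0.25. Tsr1, which matures the small ribosomal subunit, read 9.44, 9.29 and 9.54 on 8 h pools 1 to 3 and 8.60, 8.71 and 9.04 on 24 h pools 1 to 3, a 1.56-fold fall without overlap. Nop58, a core protein of box C/D particles, fell 1.67-fold, Nolc1, a nucleolar chaperone, 1.46-fold, and Utp20 and Nop2, processing factors, each 1.35-fold. Polr1a, the largest subunit of RNA polymerase I, had a difference of -0.41 and was called. The count was 0 without null 8 h pool 3, without null 24 h pool 2 or without both null pools numbered 1, and 8 with the replicate block. Odc1 and Srm, which make polyamines, fell 1.56-fold and 1.44-fold. With Arg1 they gave 3 falls among 18 tested arginine and polyamine enzymes, and 0 without null 8 h pool 3 or 24 h pool 2 and 5 with the replicate block.

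Slc3a2 and Slc7a5, the 2 chains of a large neutral amino acid transporter, fell together. Slc3a2 read 10.41, 10.47 and 10.43 on 8 h pools 1 to 3 and 9.79, 9.73 and 9.85 on 24 h pools 1 to 3. Both groups were tight, a 1.57-fold fall (SE 0.07, adjusted p = 0.0014). Slc7a5 fell 1.57-fold as well and lost its call without null 8 h pool 2 or 3 or 24 h pool 1 or 2 (adjusted p up to 0.096). With Cebpb these were the 3 falls among 24 tested genes of the amino acid and ATF4 response, with 0 rises. Among solute and ion channels of secretory epithelium 4 of 12 fell and 0 rose. Slc5a5, the sodium iodide symporter of lactating epithelium, fell 2.33-fold, from 7.89, 7.67 and 8.09 to 6.62, 6.64 and 6.72. Aqp5, a water channel, fell 1.76-fold and Slc39a8, a zinc and manganese importer, 1.61-fold, both lost without null 8 h pool 3 or 24 h pool 2 (adjusted p up to 0.061 and 0.053). Kcnk1, a potassium channel, fell 1.38-fold and was called in 3 of 12 leave-one-out fits, lost without any null pool, wild type 8 h pool 1 or 2 or wild type 24 h pool 1.

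Vessel markers were lower too. Of 24 tested endothelial genes 5 fell and 0 rose, with a median of -0.26 and 21 of 24 below 0. Tie1, an endothelial receptor kinase, read 7.53, 7.47 and 7.50 on 8 h pools 1 to 3 and 6.89, 6.72 and 6.78 on 24 h pools 1 to 3. The groups were tight and apart, a 1.62-fold fall (SE 0.08, adjusted p = 0.0017). Aplnr, the apelin receptor, fell 1.75-fold, Podxl, a surface sialomucin, 1.56-fold, Pecam1, the adhesion molecule CD31, 1.42-fold and Kdr, a VEGF receptor, 1.22-fold. Tie1, Aplnr and Pecam1 kept their calls with any 1 array left out. Podxl lost its without null 8 h pool 1 or 3 or 24 h pool 2 or 3 (adjusted p up to 0.088), and Kdr without any wild type 8 h pool, wild type 24 h pool 1 or any null pool but 24 h pool 1 (up to 0.16). Kdr was not called with the replicate block either (adjusted p = 0.065). The list mean ran from 0.09 to 0.20 over the 8 h pools and from -0.26 to -0.07 over the 24 h pools. Its count was 3 without null 8 h pool 3, 24 h pool 2 or 24 h pool 3 and 1 without both null pools numbered 3.

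Genes of growth factor signalling held a few called falls. Tgfb3, a TGF beta ligand, read 8.72, 8.68 and 8.69 on 8 h pools 1 to 3 and 7.75, 7.83 and 7.56 on 24 h pools 1 to 3. The early pools were nearly equal, and the fall was 1.98-fold (SE 0.08, adjusted p = 0.00018). Tgfb2, a further ligand, fell 1.95-fold, no longer called once null 8 h pool 3 was dropped (adjusted p = 0.056). Id3, a target of BMP signals, fell 1.49-fold and lost its without null 8 h or 24 h pool 2 (up to 0.081). These 3 were the calls among 26 tested genes of TGF beta and BMP, of which 5 fell with the replicate block. Among EGF family genes Epgn and Erbb3, a receptor of neuregulins, fell 5.72-fold and 1.47-fold, 2 of 9 tested. Epgn passed the signal filter only through its null 8 h arrays. Erbb3 lost its call without null 8 h pool 1 or 3 or 24 h pool 3 (adjusted p up to 0.065). Hes1 and Dll1, a target and a ligand of Notch, fell 1.55-fold and 1.29-fold, 2 of 17 tested, and 0 were called without null 8 h pool 2, 8 h pool 3 or 24 h pool 2. Sfrp4, a secreted WNT antagonist, fell 1.89-fold and lost its call under the replicate block (adjusted p = 0.055) and without null 8 h or 24 h pool 2 or 3 (up to 0.13). Irs1, an adaptor of insulin and IGF receptors, fell 1.32-fold and lost its without null 8 h pool 3, 24 h pool 2 or 24 h pool 3 (up to 0.083). Cdkn1c, the cell cycle inhibitor p57, fell 1.58-fold and was the 1 call among 19 tested G1 cyclins, kinases and inhibitors (5.26%, beside 4.57% of all genes).

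Proliferation genes were not called at all. With limma, 0 of 34 tested genes of G1/S and DNA replication and 0 of 20 of G2/M and mitosis passed, while 9 and 5 had an unadjusted p below 0.05, against 2545 of 12004 genes. With array weights 8 and 1 were called higher, with the replicate block 0 and 0, and without null 24 h pool 1 there were 1 and 0. The medians were 0.18 and 0.31, and 30 of 34 and 19 of 20 lay above 0. The members with the largest differences were Cenpa, a centromere histone (0.59, adjusted p = 0.21), Birc5, survivin (0.56, 0.35), Rrm2, the small subunit of ribonucleotide reductase (0.54, 0.42), and Cdt1, a licensing factor (0.44, 0.45). Lymphocyte markers, given next, were high on the same late arrays, and their part in these medians was not tested.

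Clock genes moved in both directions. Of 19 tested, 2 fell and 1 rose. Nfil3, a repressor of the D-box, read 8.46, 8.15 and 8.34 on 8 h pools 1 to 3 and 7.17, 7.10 and 6.94 on 24 h pools 1 to 3, a 2.37-fold fall without overlap, kept with any 1 array left out. Nr1d1, which encodes REV-ERB alpha, rose 1.40-fold, from 7.47, 7.30 and 7.14 to 7.82, 7.78 and 7.80. Csnk1e, a kinase of period proteins, fell 1.46-fold. Nr1d1 lost its call without null 8 h pool 2 or 3 or any 24 h null pool (adjusted p up to 0.12), and Csnk1e without null 8 h pool 3, 24 h pool 2 or 24 h pool 3 (up to 0.058). Per2 and Usp2 had differences of -0.52 and -0.54 and were not called (adjusted p = 0.19 and 0.18). Klf15, whose promoter is shown above, was the 1 call among 23 tested glucocorticoid targets (4.35%, beside 4.57% of all genes). With the replicate block 3 of these targets rose and 1 fell. Klf15 read 8.69, 8.73 and 9.02 on 8 h pools 1 to 3 and 9.36, 9.58 and 9.60 on 24 h pools 1 to 3, a 1.62-fold rise without overlap, kept with any 1 array left out.

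Falls were called for 2 of 20 tested hypoxia targets, 2 of 21 heat shock genes (19 of 21 below 0), 1 of 19 genes of NRF2 and detoxification and 1 of 20 of cholesterol synthesis. Ndrg1, a hypoxia target, fell 1.22-fold, Txnrd1, thioredoxin reductase, 1.28-fold, Hmgcs1, an early enzyme of cholesterol synthesis, 1.55-fold, and Dnajb4 and Hspa8, chaperones, 1.36-fold and 1.24-fold. Fads1, a fatty acid desaturase, and Gpam, which starts glycerolipid synthesis, fell 1.51-fold and 1.35-fold, 2 of 27 tested genes of fatty acid and triglyceride synthesis. A further probe set of Fads1 had the opposite sign and was not called. Hmgcs1 read 12.06, 12.45 and 12.34 on 8 h pools 1 to 3 and 11.81, 11.46 and 11.69 on 24 h pools 1 to 3, and 3 of its 4 further tested probe sets fell as well. Fads1 kept its call with any 1 array left out, Hmgcs1 lost its when null 8 h pool 3 was dropped (adjusted p = 0.053), Txnrd1 lost its without any 8 h pool of either genotype or null 24 h pool 1 or 2 (up to 0.15), and Ndrg1, Dnajb4, Hspa8 and Gpam lost theirs without null 8 h pool 3, 24 h pool 2 or 24 h pool 3 (up to 0.12). Of 21 white adipocyte genes Acvr1c, a receptor of the activin family, rose 1.59-fold (lost without wild type 8 h pool 2 or any null pool) and 0 fell. The median was -0.01, with 12 of 21 below 0. The array groups of 4 of the 21 lay lower and of 4 higher at 24 h without overlap, beside 17.7% and 8.68% of all genes. Tfrc, the transferrin receptor, fell 1.94-fold and Pdgfrb, a receptor of pericytes and fibroblasts, 1.48-fold. Tfrc lost its call without null 8 h pool 3 or 24 h pool 2 (adjusted p up to 0.076) and Pdgfrb without null 8 h or 24 h pool 2 or 3 (up to 0.071).

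Lymphocyte markers varied between pools of 1 time. The list mean of T and natural killer cells was -1.06, -0.19 and -0.05 on 8 h pools 1 to 3 and -0.87, 0.68 and 1.47 on 24 h pools 1 to 3. That of B and plasma cells was -1.06, -0.16 and 0.10 at 8 h and -0.79, 0.82 and 1.59 at 24 h. Pool 1 was low at both times and the late pools 2 and 3 were high, so the groups overlapped. With limma 0 of 16 T and natural killer genes and 0 of 17 B and plasma cell genes were called, 4 and 2 had an unadjusted p below 0.05, and the medians were 0.98 and 1.06. With the replicate block 1 and 0 were called higher, with array weights 4 and 4, and without null 24 h pool 1 there were 2 and 1. Ms4a1, the B cell antigen CD20, had a difference of 1.83 (adjusted p = 0.46) and Cd5 one of 1.29 (adjusted p = 0.41). Mammary fat pads of the groin hold a lymph node, and the labels do not say which glands were taken.

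The mean of skeletal muscle genes was 0.26, -2.72 and -0.39 on 8 h pools 1 to 3 and 0.49, -1.17 and -0.76 on 24 h pools 1 to 3, with pool 2 low at both times. With limma 0 of 30 were called, 0 had an unadjusted p below 0.05, and 1 was called with the replicate block. Their median was 0.50 and became -0.65 without null 8 h pool 2. The mean of skin and hair follicle genes was -0.16, 0.33 and -0.82 at 8 h and -0.59, -0.91 and -0.92 at 24 h. Here 0 of 19 were called, 1 had an unadjusted p below 0.05, and 0 were called with the replicate block. Calml3 and Krtdap, genes of stratified epithelium, had differences of -2.58 and -2.34 (adjusted p = 0.17 and 0.31), and Cst6 one of -4.74 (adjusted p = 0.19), the largest difference among the genes named here and not called. The basal keratins named above are shared between skin and gland. The part of tissue content at dissection in the epithelial falls was not tested.

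**Figure D4:**
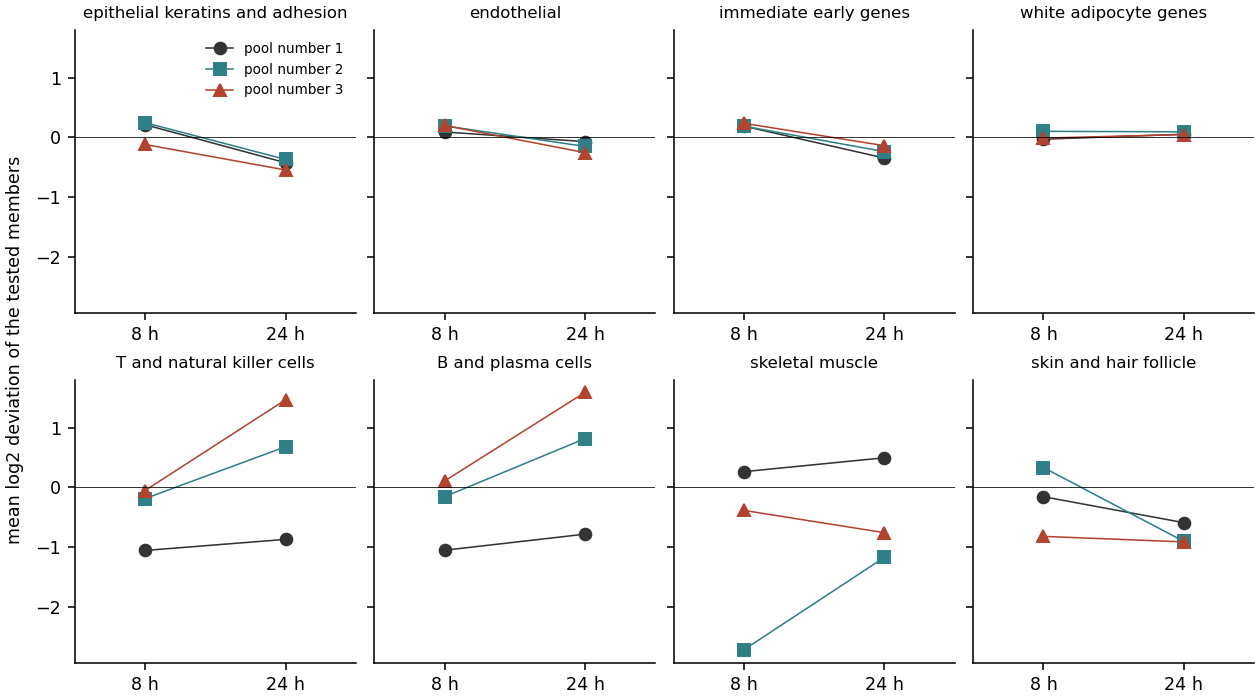
Mean of 8 gene lists on each receptor null array, as the mean log2 deviation of the tested members from each gene's mean over the 12 arrays (y axis), at 8 h and 24 h; lines join arrays with the same pool number. Epithelial, endothelial and immediate early genes are lower on all 3 late arrays, white adipocyte genes overlap between the times, and the lymphocyte and muscle lists differ between pool numbers.

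Set beside wild type glands, which share no array with the null glands, the change over time was mostly in the same direction. Of the 548 genes called in null, 500 had the same sign in wild type, 232 were also called there in that direction and 4 in the opposite one. The 232 make up 42.3% of the null calls and 36.6% of the 634 wild type calls (5.28% of genes, or 1238 probe sets, 5.22%). Over 12004 genes the differences of the 2 genotypes had a Pearson r of 0.475, as a description across genes, which are not independent. Over the null calls the median ratio of the wild type to the null difference was 0.684, a ratio that choosing genes on the null side lowers. The test of the difference itself, null change minus wild type change, called 34 of 23709 probe sets (0.143%) and 16 of 12004 genes (0.133%), 4 with a positive difference (0.0333%) and 12 with a negative one. Of these genes 12 were also called over time in null. The first 9 are described next, and the remaining 3 were Cldn4, Sox4 and Ptprf.

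**Figure D5:**
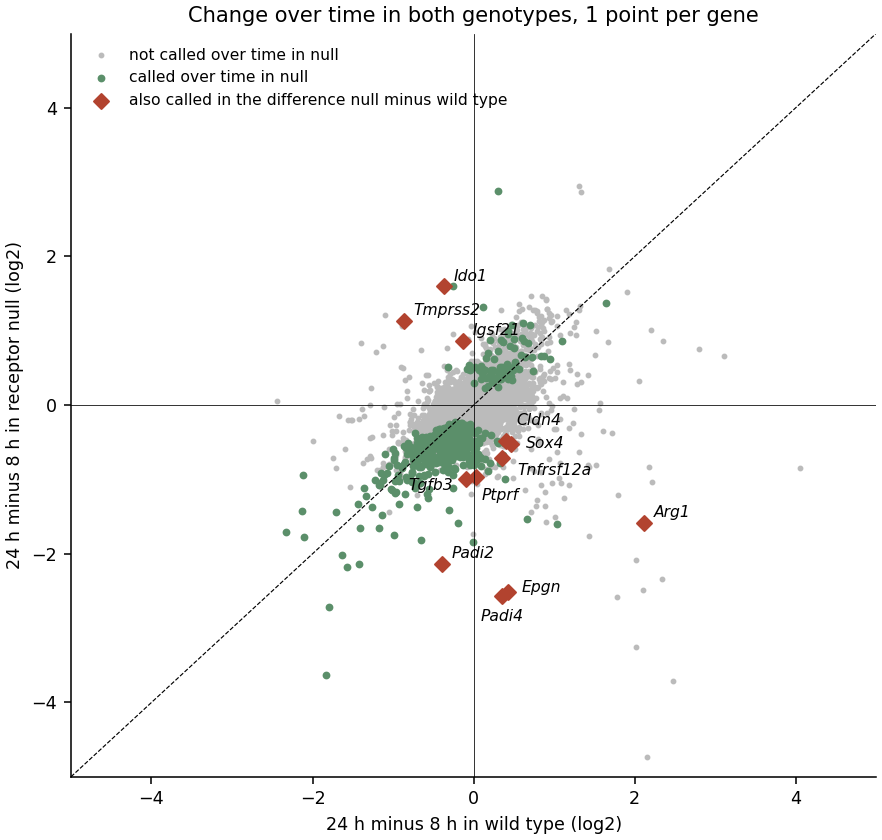
Difference between 24 h and 8 h in wild type (x axis, log2) against receptor null glands (y axis, log2), 1 point per gene for 12004 genes, with the dashed line where both are equal. Most called genes (green) lie at the lower left and upper right (500 of 548 share their sign), and the 12 genes marked by diamonds, for which the difference between genotypes was also called, lie away from the dashed line.

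Padi4 carried one of the largest differences between the genotypes. It read 7.18, 7.50 and 7.51 on null 8 h pools 1 to 3 and 4.72, 4.79 and 5.0 on null 24 h pools 1 to 3. In wild type it read 4.73, 4.66 and 5.01 at 8 h and 4.98, 4.68 and 5.79 at 24 h. Only the early null pools stood out; all other arrays lay below the array medians, where levels are poorly measured. The null fall was 5.92-fold (SE 0.24, adjusted p = 0.00037), and the difference between genotypes was -2.92 (adjusted p = 0.013). Padi2, whose gene is close to Padi4 on chromosome 4, read 8.74, 8.62 and 8.91 on null 8 h pools 1 to 3 and 6.81, 6.55 and 6.51 on null 24 h pools 1 to 3, a 4.39-fold fall. Its wild type pools read 6.69, 6.74 and 6.69 at 8 h and 6.69, 6.27 and 6.0 at 24 h, so the late null level overlapped the wild type range. Of 5 listed peptidylarginine deiminases only these 2 passed the signal filter and were tested. Padi4 passed it only through its null 8 h arrays, so its fall is no independent result about the family. The falls of Padi4 and Padi2 and their called differences were kept with any 1 array left out.

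Epgn had the same shape. It read 6.91, 7.30 and 7.74 on null 8 h pools 1 to 3 and 4.79, 4.68 and 4.93 on null 24 h pools 1 to 3, against 4.66, 4.91 and 5.03 in wild type at 8 h and 5.23, 5.30 and 5.37 at 24 h. The early null pools were high and the late ones within the wild type range. All arrays but the early null pools lay below the array medians, where levels are poorly measured. Epgn, like Padi4, thus passed the signal filter only through that group. Its null fall was 5.72-fold (SE 0.19, adjusted p = 0.00011), and the difference between genotypes was -2.95 (adjusted p = 0.0020). Tnfrsf12a, the receptor of the cytokine TWEAK, fell 1.63-fold in null, from 8.96, 8.96 and 8.85 to 8.31, 8.31 and 8.03, while wild type pools read 8.22, 8.25 and 8.35 at 8 h and 8.62, 8.53 and 8.73 at 24 h. The order of the times was thus opposite in the 2 genotypes, although the wild type change was not called (adjusted p = 0.051). In wild type Tgfb3 read 8.82, 8.70 and 8.87 at 8 h and 8.73, 8.70 and 8.67 at 24 h, and it was not called there. Its difference between genotypes was -0.90 and was lost without wild type 8 h pool 1 (adjusted p = 0.050).

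Arg1, arginase, moved in opposite directions in the 2 genotypes, both called. It read 7.92, 8.17 and 9.23 on null 8 h pools 1 to 3 and 7.29, 6.63 and 6.63 on null 24 h pools 1 to 3, a 3.01-fold fall (adjusted p = 0.029). Wild type pools read 5.05, 6.02 and 5.99 at 8 h and 7.91, 7.52 and 7.98 at 24 h (adjusted p = 0.0085). The difference was -3.70 (adjusted p = 0.014); the call ended when null 24 h pool 3 was dropped (adjusted p = 0.050) and with the replicate block (adjusted p = 0.053), and the null fall itself was lost without null 8 h or 24 h pool 2 or 3 (up to 0.11).

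Ido1, which degrades tryptophan along the kynurenine route, rose in null glands. It read 8.07, 7.80 and 7.71 on null 8 h pools 1 to 3 and 9.56, 9.27 and 9.54 on null 24 h pools 1 to 3, a 3.03-fold rise (SE 0.18, adjusted p = 0.0013). Wild type pools were low throughout, 4.55, 5.18 and 4.90 at 8 h and 4.76, 4.24 and 4.53 at 24 h, below the array medians. The difference of 1.96 (adjusted p = 0.013) was kept with any 1 array left out and lost with the replicate block (adjusted p = 0.058). Ido1 and Tph1 were the calls in opposite directions among 11 tested tryptophan and serotonin genes. Ido1 is also induced by interferon, and a part of interferon in its rise was not tested. Of 30 tested interferon response genes 0 were called in null, and 2 had an unadjusted p below 0.05. Their median difference was 0.12, with 20 above 0 and 10 below. With the replicate block 0 were called. Tmprss2, a serine protease of epithelial surfaces, read 8.90, 8.74 and 8.67 on null 8 h pools 1 to 3 and 9.64, 10.31 and 9.75 on null 24 h pools 1 to 3, a 2.19-fold rise, and 2 further probe sets rose as well. Wild type pools fell from 9.24, 9.37 and 9.84 to 8.38, 8.66 and 8.82 (adjusted p = 0.028). Dropping null 8 h pool 3 ended the call of the rise (adjusted p = 0.054), and dropping null 8 h pool 2 or 3 that of the difference of 2.00 (up to 0.066). Igsf21, a cell surface protein of the immunoglobulin family, rose 1.83-fold in null, with a difference of 1.00 that was called in 2 of 12 leave-one-out fits.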

How the data were processed

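RNA of mouse mammary gland pools was measured on Affymetrix expression arrays. The deposited log2 values of 45101 probe sets were used as the authors gave them; no label states the scale, so log2 was inferred from the range of the values. MAS5 is named by the submitters' processing notes without a role; how the signals were corrected, summarized and normalized is not given in the sources used here. MAS5 itself gives linear signals. How that processing treats low signals is therefore unknown. Of 45037 probe sets that are not controls, 34945 carried 1 gene symbol in the platform annotation, 932 several and 9160 none; only the first were named, and 0 symbols changed on lookup in a RefSeq gene table of GRCm38.p6.

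Groups came from the labels. A probe set was tested if it exceeded the median of its array on 3 or more of the 12 arrays (23709), and a gene was represented by its tested probe set with the highest mean (12004 genes). limma 3.58.1 in R 4.3.3 fitted 4 group means over all 12 arrays (trended prior, 8 residual degrees of freedom), so leaving out a wild type array also moves null calls. Benjamini-Hochberg adjusted p below 0.05 was a call, and SE is the moderated standard error. No replicate block was used in this main fit, so every call above is unpaired unless the block is named. Deviations from group means of same-numbered null pools correlated (r = 0.52, 0.26 and 0.38), all above the threshold of 0.1. A fit with the replicate numbers as a block was therefore set beside the main fit. Between differently numbered null pools, 8 h pool 2 with 24 h pool 3 gave 0.15, also above the threshold, and 8 h pool 3 with 24 h pool 2 gave 0.095. Those that held a pool 1 ran from -0.42 to -0.28. This pairing comes from the data, as the labels name only replicate numbers. In wild type r for the same numbers was 0.45, -0.01 and 0.02, and the block over all arrays was fitted there too. Blocked counts stand beside only some lists above. Among the others, 8 genes fell with the block in the IL-6 list and 5 among secretory channels. For clock, heat shock and fatty acid synthesis genes it was 3 each. In the ATF4, Notch, NRF2, steroid metabolism and G1 cyclin lists 1 rose each, and 2 rose among tryptophan and serotonin genes.

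The comparison, the 55 gene lists and the rule for named genes were chosen with earlier results of these data known. Named were Pgr, the 15 largest called rises and falls with groups that did not overlap and a higher group mean above the mean of the array medians, up to 5 called members a direction and 2 uncalled members of each list, and up to 5 genes a direction whose difference from wild type was also called, 202 genes in all, 104 of them called. Junb, Jund, Klf4, Ier3, Polr1a, Stat3, Myb, Cldn4, Sox4 and Ptprf lie outside this rule and were named to complete a list, after their values were seen. On simulated data with 200 changed among 23709 probe sets, the time comparison in null recovered 40.3% of 1.5-fold, 95.5% of 2-fold and 98.5% of 4-fold changes, with 5 false calls. These rates hold for the simulated setting and do not give the share of real changes found. In the data, genes that varied between pools, such as Cst6 and Ms4a1, differed by more than 2-fold and were not called. Promoter windows came from RefSeq. The number of arrays limits the precision. Alternatives covered filter, prior, floor, scaling, array weights, arrays fitted, block, probe sets per gene, fold threshold and leaving out each array. Leaving out both null pools numbered 1 or 3 was added after seeing the data, because lymphocyte markers differed by pool number. Figures were drawn with matplotlib 3.10.9.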

Additional observations from a re-analysis of the deposited data

Results flagged for a closer look

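For 9 genes the change between 8 h and 24 h in null glands differed from that in wild type glands by limma's test of the difference itself. The null change minus the wild type change was positive for Ido1 (1.96), Tmprss2 (2.00) and Igsf21 (1.00) on the log2 scale. It was negative for Arg1 (-3.70), Epgn (-2.95), Padi4 (-2.92), Padi2 (-1.74), Tnfrsf12a (-1.06) and Tgfb3 (-0.90). Ido1, Padi4, Epgn, Padi2 and Tnfrsf12a kept this call with any 1 of the 12 arrays left out. With the replicate block the call was lost for Ido1 (adjusted p = 0.058), Arg1 (0.053) and Igsf21 (0.067) and kept for the other 6.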

How the results depend on the processing

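Time in null called 1044 probe sets. The count was 5775 with array weights (69.4% lower), 348 with null arrays only, 566 with null arrays and a replicate block, 575 with 1 probe set per gene and 107 with the 2-fold threshold. It was 659 without both null arrays numbered 1 and 87 without both numbered 3. With 1 array left out it ran from 232 to 1202. With the replicate block over all arrays it was 1346, of which 868 were shared with the fit without it. The block, which uses 4 residual degrees of freedom, lost 4 of 104 named calls (Ccn1, Sfrp4, Spint1 and Kdr, as given above) and changed no other call of a named gene over time in null. Of the 104, 43 were kept in all 12 leave-one-out fits, and 0 changed direction in any setting.

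Time in wild type called 1238, and 500 with wild type arrays only, 590 with these and a replicate block, 657 with 1 probe set per gene, 151 with the 2-fold threshold, and from 239 to 1328 with 1 array left out. The difference between genotypes called 34, and 18 with a filter on the mean, 169 with array weights, 11 with 1 probe set per gene, 15 without both null arrays numbered 1, 4 without both numbered 3, and from 12 to 45 with 1 array left out. With the replicate block it called 35. The cause of these moves was not tested, except that fewer arrays or genes enter some settings by construction. No detection calls were used, so the signal over background that limits low probe sets is unknown.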
